A study of Mus musculus with 62 samples.

Results

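Genes for the opioid and tachykinin peptides and for their receptors were described in bulk RNA sequencing of the nucleus accumbens (NAc), the prefrontal cortex (PFC) and the suprachiasmatic nucleus (SCN) of mice. The 10 genes were chosen by name as 5 peptide precursors (Penk, Pdyn, Pnoc, Tac1 and Tac2) and 5 receptors (Oprm1, Oprk1, Oprd1, Oprl1 and Tacr1). Of these, 8 were among the 11569 rows of the NAc and PFC count table, 8 were among the 12047 rows of the SCN count table, and 7 were in both. Pnoc and Tac2 were not analysed here in the NAc and PFC, and Oprd1 and Tac2 were not analysed here in the SCN.

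The study exposed C57BL/6J mice of both sexes to circadian rhythm disruption (CRD), a shifted lighting schedule, and compared them with controls kept on a regular schedule. Brains were taken at ZT6, in the light phase, about a month after the schedule ended, and the regions were punched from frozen tissue. The labels name adolescent exposure, adult exposure and matching controls, whereas the methods of the study describe only adolescent exposure and its controls for the sequenced tissue. For each library the labels give only the region and the number of the mouse. No library was therefore assigned to CRD or control, or to a sex, and every value below is taken over libraries that mix them.

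There were 62 libraries from 26 mice, with 26 libraries of the NAc, 17 of the PFC and 19 of the SCN. Total counts per library were 28879724 to 60009482 for the NAc, 31216225 to 50333579 for the PFC and 16496666 to 35389742 for the SCN, and mitochondrial ribosomal RNA took 39.0% to 69.3%, 42.0% to 59.1% and 20.5% to 51.6% of them. The labelled tissues were checked against marker genes as summed CPM, which is the read count scaled by library size. The 8 genes of striatal projection neurons summed to 646 to 1603 CPM in NAc libraries and 28.1 to 73.8 CPM in PFC libraries, and the 7 genes of cortical glutamatergic neurons to 11.6 to 447 CPM and 796 to 939 CPM. All 9 SCN neuron genes were in the SCN table and summed to 89.2 to 463 CPM there. NAc J1199 and NAc J1140 held the highest levels of Slc17a7, the vesicular glutamate transporter of cortical neurons, among NAc libraries, at 340 and 206 CPM against a median of 64.6 CPM. SCN J1199 and SCN J1140, from the same mice, stood apart in striatal genes, with Ppp1r1b, which encodes DARPP-32, at 134 and 66.9 CPM against an SCN median of 5.21 CPM.

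Opioid peptides are cut from large precursors. Proenkephalin (Penk) yields the enkephalins, which act mainly on the delta receptor (Oprd1) and the mu receptor (Oprm1), and prodynorphin (Pdyn) yields dynorphins and neoendorphins, which act mainly on the kappa receptor (Oprk1). Prepronociceptin (Pnoc) yields nociceptin, the ligand of the related receptor Oprl1. Protachykinin 1 (Tac1) yields substance P and neurokinin A, and substance P acts mainly on Tacr1. Opioid receptors couple to inhibitory G proteins, and Tacr1 to Gq. In the striatum, enkephalin is known as a peptide of projection neurons with the D2 dopamine receptor, and dynorphin and substance P as peptides of those with the D1 receptor.

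The precursors differ in how many copies of the peptide core they encode. In the GENCODE M21 transcript of each gene with the longest coding sequence, on GRCm38, Penk held 7 copies of the opioid core, 6 of them ending in a methionine codon and 1 in a leucine codon, and all 3 copies in Pdyn ended in a leucine codon. Pnoc held 1 copy of the related nociceptin core. Tac1 held 2 copies of the tachykinin core, in different exons. The stretches below show both enkephalin types, the 3 cores of Pdyn in their order along the precursor, and the 2 products of Tac1. Capitals mark the 15 bases of the core, and 6 bases are shown on either side. In the opioid stretches shown, these are codons for basic residues, the kind at which convertases cut. Those after the cores of Pdyn lie within the named peptides.
Penk, Met-enkephalin, copy 1, chr4:4134328-4134354, minus strand, exon 2: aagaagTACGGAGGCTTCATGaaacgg
Penk, Leu-enkephalin, copy 6, chr4:4133935-4133961, minus strand, exon 2: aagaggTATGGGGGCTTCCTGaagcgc
Pdyn, alpha-neoendorphin, copy 1, chr2:129688232-129688258, minus strand, exon 4: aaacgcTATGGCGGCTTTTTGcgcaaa
Pdyn, dynorphin A, copy 2, chr2:129688124-129688150, minus strand, exon 4: aaacgcTATGGGGGCTTCCTGcggcgc
Pdyn, dynorphin B, copy 3, chr2:129688067-129688093, minus strand, exon 4: aagcgcTATGGTGGTTTCCTGcggcgt
Tac1, substance P, copy 1, chr6:7556744-7556770, plus strand, exon 3: cagcagTTCTTTGGATTAATGggcaag
Tac1, neurokinin A, copy 2, chr6:7559110-7559136, plus strand, exon 6: gattccTTTGTTGGACTAATGggcaaa

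Penk (ENSMUSG00000045573) lies on chromosome 4 from 4133531 to 4138819, and it was the most abundant of these genes in every region. It lay between 538 and 1410 CPM in the NAc (median 904). PFC values lay between 11.5 and 37.7 CPM (median 22.4). The lowest NAc library, J1199, stood 14.3-fold above the highest PFC library, so the regions did not overlap. The NAc was higher in the edgeR quasi-likelihood test by a log2 fold change of 5.31 (SE 0.16), or 39.7-fold, with an adjusted p of 3.1e-31, and in 17 of the 17 mice with both regions. By size of change it ranked 19 of 11569 genes. Penk shares 233 exon bases with A830012C17Rik on the opposite strand, and whether the counting used strand is not given in the sources used here.

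Pdyn (ENSMUSG00000027400, chromosome 2, 129686565 to 129699844) lay between 74.7 and 150 CPM in the NAc (median 119), and between 6.63 and 13.3 CPM in the PFC (median 9.79). Every NAc library lay above every PFC library, and the log2 fold change was 3.56 (SE 0.10, edgeR adjusted p = 6.2e-32). Tac1 (ENSMUSG00000061762, chromosome 6, 7554879 to 7565834) lay between 85.3 and 130 CPM in the NAc (median 111), and between 3.77 and 8.96 CPM in the PFC (median 5.40). Its regions did not overlap either, and the log2 fold change was 4.33 (SE 0.09, edgeR adjusted p = 1.9e-37). Tac1 was the least variable of the 3 peptides in the NAc, with a coefficient of variation of 11.8% against 19.02% for Pdyn and 19.3% for Penk.

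The receptors split. Oprk1 (ENSMUSG00000025905, chromosome 1, 5588466 to 5606131) lay between 11.02 and 37.3 CPM in the NAc (median 21.1), and between 0.80 and 4.39 CPM in the PFC (median 1.72). Oprm1 (ENSMUSG00000000766, chromosome 10, 6758506 to 7038198) lay between 4.49 and 10.3 CPM in the NAc (median 7.47), and between 0.27 and 2.13 CPM in the PFC (median 0.91). Tacr1 (ENSMUSG00000030043, chromosome 6, 82402334 to 82560104) lay between 3.86 and 11.6 CPM in the NAc (median 7.23), and between 0.04 and 0.83 CPM in the PFC (median 0.41). All 3 receptors were higher in the NAc with no overlap between the regions, by log2 fold changes of 3.65 for Oprk1 (SE 0.18, edgeR adjusted p = 6.3e-23), 2.99 for Oprm1 (SE 0.14, edgeR adjusted p = 3.3e-23) and 4.11 for Tacr1 (SE 0.18, edgeR adjusted p = 9.6e-25). The PFC values rest on few reads, from 2 to 40 counts per library for Tacr1 and from 10 to 65 for Oprm1. Oprm1 shares 96 exon bases with Ipcef1 on the opposite strand.

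The other 2 receptors overlapped between the regions and were not called. Oprd1 (ENSMUSG00000050511, chromosome 4, 132110726 to 132144486) lay between 2.68 and 8.03 CPM in the NAc (median 5.08), and between 4.14 and 6.38 CPM in the PFC (median 4.82). Its log2 fold change was 0.09 with a 95% confidence interval from -0.07 to 0.25 (edgeR adjusted p = 0.32), and the NAc was the higher region in 8 of 17 mice. Oprl1 (ENSMUSG00000027584, chromosome 2, 181715016 to 181720985) lay between 11.8 and 20.3 CPM in the NAc (median 16.9), and between 16.7 and 21.96 CPM in the PFC (median 18.6). The regions overlapped, and its log2 fold change of -0.20 (SE 0.06, edgeR adjusted p = 0.0026) was smaller than the 1.2-fold change required for a call. The NAc was the lower region in 12 of 17 mice.

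In all, 6 of the 8 genes were called higher in the NAc and 0 lower, where a call is an adjusted p under 0.05 and a change of at least 1.2-fold. Among all 11569 genes tested, 23.7% were called higher in the NAc, 21.7% lower and 45.4% in either direction. The same 6 genes had regions that did not overlap, against 4.83% of all genes with the NAc above and 4.67% with the NAc below. The median log2 fold change of the 8 genes was 3.61, and that of all genes was 0.02. The genes of striatal projection neurons moved in the same direction, 8 of 8 called higher in the NAc with a median log2 fold change of 5.18, and the 7 cortical genes were all called lower. The counts were deposited after a filter on expression level. Tacr1 and Oprm1 were low in the PFC, with medians of 0.41 and 0.91 CPM. So were Drd2 and Isl1 of the striatal genes, at 0.51 and 0.02 CPM. Genes this low in the PFC may have entered through their NAc level, so their higher calls may be partly set by the filter. Bulk tissue does not tell fewer cells of a type from less RNA per cell, and the part of cell makeup in these differences was not tested.

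**Figure D1:**
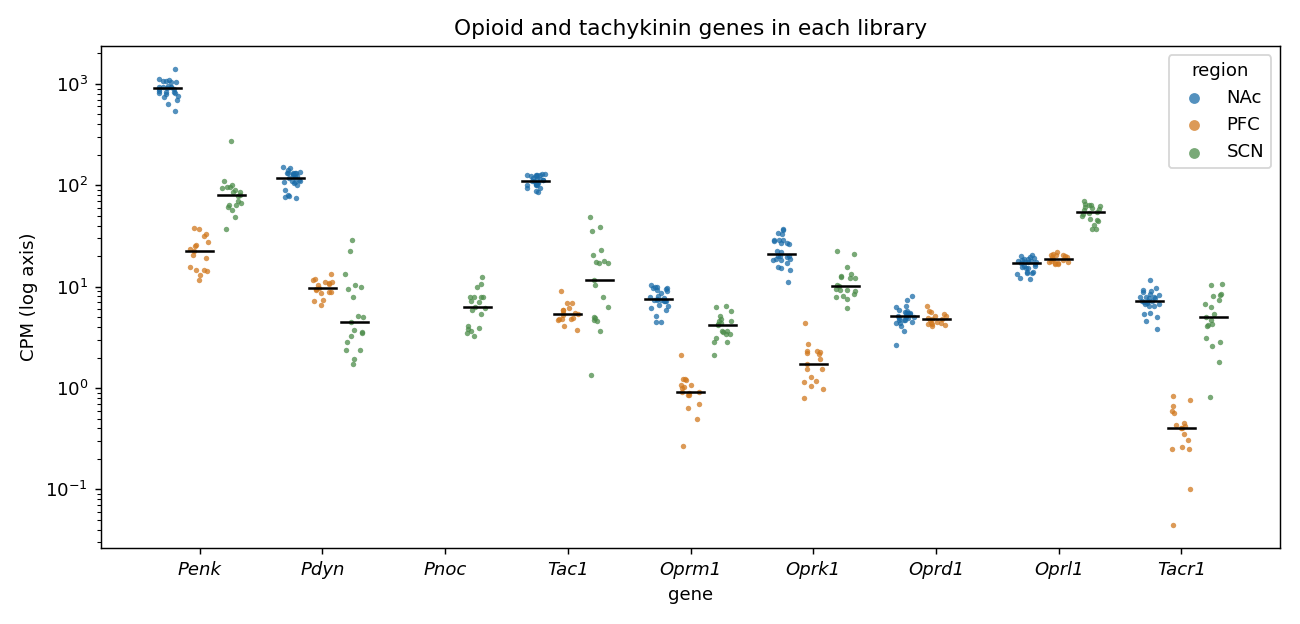
CPM on a log axis for each gene. Each point is 1 library of the NAc (n = 26), PFC (n = 17) or SCN (n = 19), and black lines are medians. Penk, Pdyn, Tac1, Oprm1, Oprk1 and Tacr1 separate the NAc from the PFC completely, while Oprd1 and Oprl1 overlap. The SCN was scaled on its own.

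Levels of different genes were compared only per kilobase of exon. In the NAc, Penk led with a median of 553 CPM per kilobase, followed by Pdyn at 41.3 and Tac1 at 32.7 CPM per kilobase, whose ranges overlapped. The receptors followed with Oprl1 at 4.51, Oprk1 at 2.30, Oprd1 at 1.26, Tacr1 at 1.11 and Oprm1 at 0.93 CPM per kilobase, and each overlapped the next in this order. In the PFC, Penk led at 13.7 CPM per kilobase and Oprl1 came second at 4.95, with a range that overlapped that of Pdyn at 3.39. Oprk1, Oprm1 and Tacr1 came last in the PFC, at 0.19, 0.11 and 0.06 CPM per kilobase, and the ranges of neighbors in that order overlapped.

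Listed genes that make, break down and transmit these peptides were compared in the same fit. Of 8 genes for peptide processing, 5 were called lower in the NAc, 0 higher, and 3 were not called, with a median log2 fold change of -0.38. Pcsk1, a convertase that cuts precursors at basic residues, had a log2 fold change of -1.89 (SE 0.13), with medians of 7.42 and 28.03 CPM. The second convertase, Pcsk2, had a log2 fold change of -0.76 (SE 0.06), and Pam, which amidates the ends of tachykinins, one of -0.75 (SE 0.04). Cpe, which trims the basic residues left after cutting, had a log2 fold change of -0.43 (SE 0.09).

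Of 9 peptide-degrading enzymes in the table, from 10 listed, 3 were called higher in the NAc, 3 lower, and 3 were not called. Mme, which encodes neprilysin, an enkephalin-degrading enzyme, was 11.1-fold higher in the NAc, with medians of 24.6 and 2.49 CPM and a log2 fold change of 3.47 (SE 0.13). Ece2 had a log2 fold change of 1.16 (SE 0.09). The third higher call, Ece1, with a log2 fold change of 0.39 (SE 0.13, edgeR adjusted p = 0.0068), was lost in the 17 paired mice, with 0.22 (edgeR adjusted p = 0.16) without and 0.18 (edgeR adjusted p = 0.29) with the replicate block. Thop1, a cytosolic oligopeptidase, had a log2 fold change of -0.43 (SE 0.08).

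Of 21 receptor signaling genes in the table, from 24 listed, 2 were called higher in the NAc, 9 lower, and 10 were not called. The higher genes were Rgs9, an accelerator of G protein shutoff in the striatum, with a log2 fold change of 4.34 (SE 0.13), and Adcy5, the main striatal adenylyl cyclase, with 3.004 (SE 0.11). The potassium channel subunits opened by opioid receptors were lower, with log2 fold changes of -1.64 for Kcnj3 (SE 0.17), -1.72 for Kcnj6 (SE 0.13) and -1.67 for Kcnj9 (SE 0.15). The receptor kinase Grk2 had a log2 fold change of -1.08 (SE 0.07). Among the alpha subunits of inhibitory G proteins, Gnao1 had a log2 fold change of 0.04 (SE 0.11), Gnai2 one of -0.04 (SE 0.06), Gnai3 one of -0.11 (SE 0.06) and Gnai1 one of -0.21 (SE 0.04), and none of these was called. Gnaz was called lower, with a log2 fold change of -0.43 (SE 0.07).

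**Figure D2:**
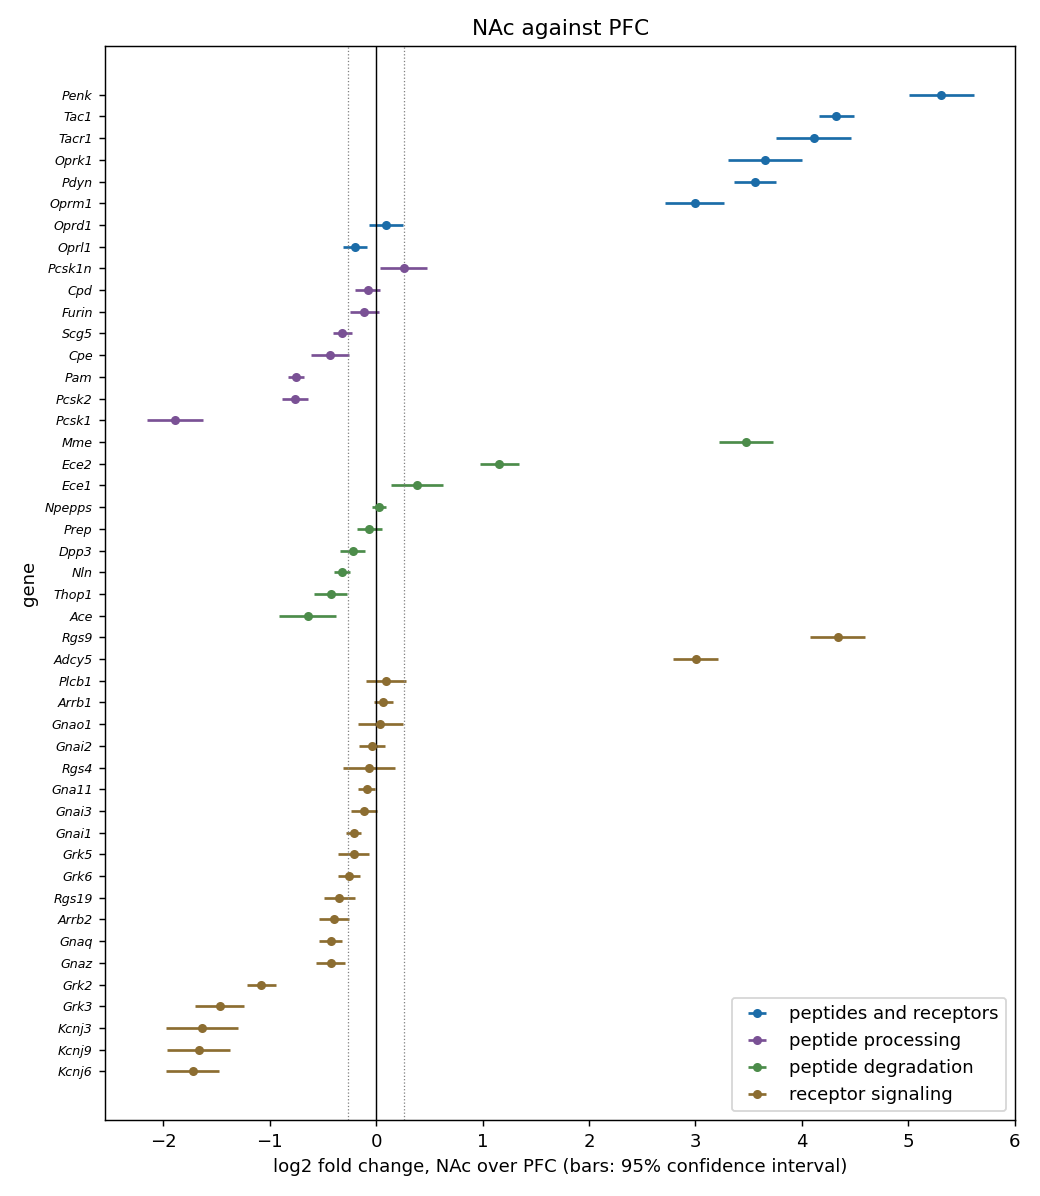
Log2 fold change of the NAc over the PFC from edgeR for the peptide and receptor genes and the 3 listed groups, with bars for the 95% confidence interval. Dotted lines mark a 1.2-fold change in either direction. Penk, Tac1, Tacr1, Oprk1, Pdyn and Oprm1 lie between 2.99 and 5.31, together with Mme, Rgs9 and Adcy5, and most genes of the lists lie at or below 0.

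In the SCN the order differed. Penk led with a median of 49.3 CPM per kilobase, and Oprl1 came second at 14.7, ahead of Tac1 at 3.41, Pnoc at 2.89 and Pdyn at 1.54 CPM per kilobase. Oprl1 lay between 36.8 and 69.9 CPM in the SCN (median 55.0), and its lowest SCN library lay above its highest NAc and PFC libraries. Oprk1 likewise lay above its PFC range, and Penk, Pdyn and Tac1 lay below their NAc ranges. The share of all genes that separate the SCN from the other regions was not computed. Because the SCN was deposited in a table of its own and scaled separately, its levels were not tested against those of the other regions. Pnoc (ENSMUSG00000045731, chromosome 14, 65400673 to 65425472), the precursor of the Oprl1 ligand, lay between 3.28 and 12.3 CPM (median 6.24).

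Penk lay between 37.3 and 276 CPM in the SCN (median 80.5), Tac1 between 1.34 and 48.3 CPM (median 11.6), and Pdyn between 1.71 and 29.1 CPM (median 4.44). The highest library for all 3 peptides was J1199, and the second highest for Penk, at 110 CPM, and Tac1, at 38.7 CPM, was J1140. These are the SCN libraries with the most Ppp1r1b. J1199 also held the highest Drd1, at 47.7 CPM against a median of 9.33 CPM, and the lowest Six6, an SCN transcription factor, at 3.44 CPM against a median of 22.8 CPM. Without both libraries, the highest value fell to 100 CPM for Penk, 35.0 CPM for Tac1 and 22.3 CPM for Pdyn, and the medians were 78.2, 10.4 and 3.73 CPM. Those highest values came from J1013, J1165 and J1018, which held 3.95, 9.87 and 7.55 CPM of Ppp1r1b. The part of striatal tissue in these values was not tested beyond leaving out the libraries.

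SCN J1018 stood apart in other genes. It held 22.3 CPM of Pdyn and also the highest level of Pomc, the precursor of beta-endorphin and a marker of the arcuate nucleus, at 178 CPM against a median of 3.12 CPM, together with the lowest Penk, at 37.3 CPM. SCN J1177, second in Pomc at 149 CPM, held 9.85 CPM of Pdyn and the lowest Tacr1, at 0.81 CPM. More Pdyn than in J1177 was also found in libraries low in Pomc. SCN J1199, J1140 and J1011 held 29.1, 13.3 and 10.5 CPM of Pdyn with 2.13, 1.23 and 2.28 CPM of Pomc. The part of neighboring hypothalamus in these values was not tested.

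**Figure D3:**
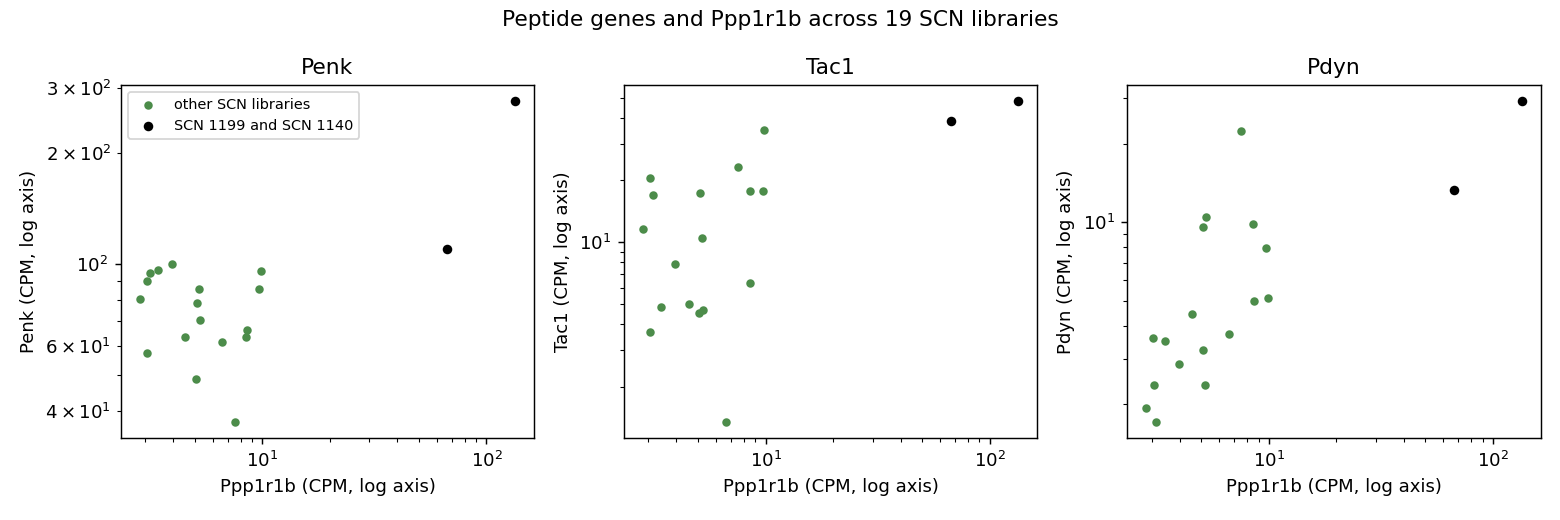
Penk, Tac1 and Pdyn against Ppp1r1b, in CPM on log axes, over the 19 SCN libraries. SCN J1199 and SCN J1140, in black, hold 134 and 66.9 CPM of Ppp1r1b, and J1199 is the highest library for each peptide gene.

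Among the receptors in the SCN, Oprm1 lay between 2.12 and 6.48 CPM (median 4.19), and Oprk1 between 6.20 and 22.5 CPM (median 10.1). Tacr1 lay between 0.81 and 10.6 CPM (median 5.02), and had the widest spread of the receptors, with a coefficient of variation of 50.8% against 18.4% for Oprl1. Oprm1, Oprk1 and Tacr1 overlapped the NAc range.

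Peptides and receptors were then compared across the 26 NAc libraries, as the slope of the receptor's counts on the log2 CPM of the peptide in edgeR, adjusted over all genes. Of 15 peptide-receptor pairs, 3 were called at an adjusted p under 0.05. For comparison, 7.82% of 11568 genes had a called slope on Penk and 29% on Pdyn. None was called on Tac1 by edgeR or by limma, with 2226 and 2082 genes at an unadjusted p under 0.05.

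Tacr1 followed Pdyn, a peptide it does not bind. Its slope was 0.83 (SE 0.18, edgeR adjusted p = 0.0043) on the log2 scale, and the call held without any 1 of the 26 libraries. The lowest Tacr1 library, J1199 with 3.86 CPM, held 78.7 CPM of Pdyn, and the highest, J1162 with 11.6 CPM, held 132 CPM. Pearson's r was 0.70 (permutation p = 7.0e-05) and Spearman's rho 0.64 (permutation p = 6.4e-04), with an r of 0.73 among the lower mouse numbers, up to J1021 (n = 12), and 0.76 among the upper ones, from J1140 (n = 14). Without J965 and J1019, the libraries farthest from the median of Pdyn, r was 0.59, the slope was 0.74 and the call was lost (edgeR adjusted p = 0.11). The share of all genes with a called slope on Pdyn then dropped from 29% to 0.0605%. J965 and J1019 held the most mitochondrial ribosomal RNA of the NAc libraries, 69.3% and 68.7% of counts, and the fewest counts on nuclear protein-coding genes, 8965718 and 9478529. J1018, next in mitochondrial ribosomal RNA at 65.3%, was also low in Pdyn, at 80.5 CPM. Other libraries went the other way. J1199, lower still in Pdyn at 78.7 CPM, held 44.7%, and J1014, at 60.4%, held 129 CPM of Pdyn. The part of RNA composition in the slopes on Pdyn was not tested.

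Oprl1 fell as Penk rose. Its slope was -0.48 (SE 0.13, edgeR adjusted p = 0.022). Pearson's r was -0.61 (permutation p = 6.3e-04) and rho -0.63 (permutation p = 5.6e-04), with an r of -0.37 for the lower mouse numbers, -0.73 for the upper ones and -0.65 once the 2 farthest libraries were left out, J1177 and J1199. The call was lost without J1177 or without J1160, with an adjusted p of up to 0.0575, and with Slc17a7 as a term, where the slope was -0.42 (edgeR adjusted p = 0.11).

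Oprk1 rose with Penk by a slope of 0.86 (SE 0.26, edgeR adjusted p = 0.041), with an r of 0.57 (permutation p = 0.0024) and a rho of 0.44 (permutation p = 0.024). This relation rested on part of the libraries. Its r was 0.08 for the lower mouse numbers and 0.78 for the upper ones, and 0.36 without J1177 and J1199. The call, near the threshold, was lost on leaving out any 1 of 13 libraries (J1013, J1014, J1015, J1016, J1141, J1157, J1158, J1159, J1160, J1164, J1177, J1198 and J1199). The slopes were then 0.67 to 0.89, with edgeR adjusted p-values from 0.051 to 0.21. The lowest slope and the highest adjusted p came without J1199. With Slc17a7 as a term the slope was 0.27 (edgeR adjusted p = 0.50).

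The pairs of a peptide with its own main receptor were not called over all 26 libraries. The slope was 0.04 (SE 0.25) for Oprm1 on Penk, 0.19 (SE 0.21) for Oprd1 on Penk, -0.32 (SE 0.27) for Oprk1 on Pdyn and -0.25 (SE 0.40) for Tacr1 on Tac1, with edgeR adjusted p-values of 0.96, 0.70, 0.37 and 0.72. Oprk1 on Pdyn differed between the ranges of mouse numbers, with a slope of -0.82 in the lower range (edgeR adjusted p = 0.0022) and 1.17 in the upper range (edgeR adjusted p = 0.35). The difference of these slopes was 1.99 (edgeR adjusted p = 0.023). Of all genes, 44.2% had a called slope on Pdyn in the lower range, and 14.5% had a called difference. In the upper range edgeR called 0 genes on Pdyn, with 1404 at an unadjusted p under 0.05. The 2 opioid peptides themselves had a slope of 0.53 for Pdyn on Penk (SE 0.18, edgeR adjusted p = 0.066), with an r of 0.51 (permutation p = 0.0073), a rho of 0.53 (permutation p = 0.0063) and an r of 0.32 without the 2 farthest libraries. The call depended on the direction of the fit, although slopes and SEs were alike. Each fit was adjusted over its own genes, of which 7.82% were called on Penk and 29% on Pdyn. With the peptides exchanged, a fit added after the data had been seen, the slope of Penk on Pdyn was 0.47 (SE 0.16, edgeR adjusted p = 0.033) and was called, except without J1019, J1177 or J1199.

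**Figure D4:**
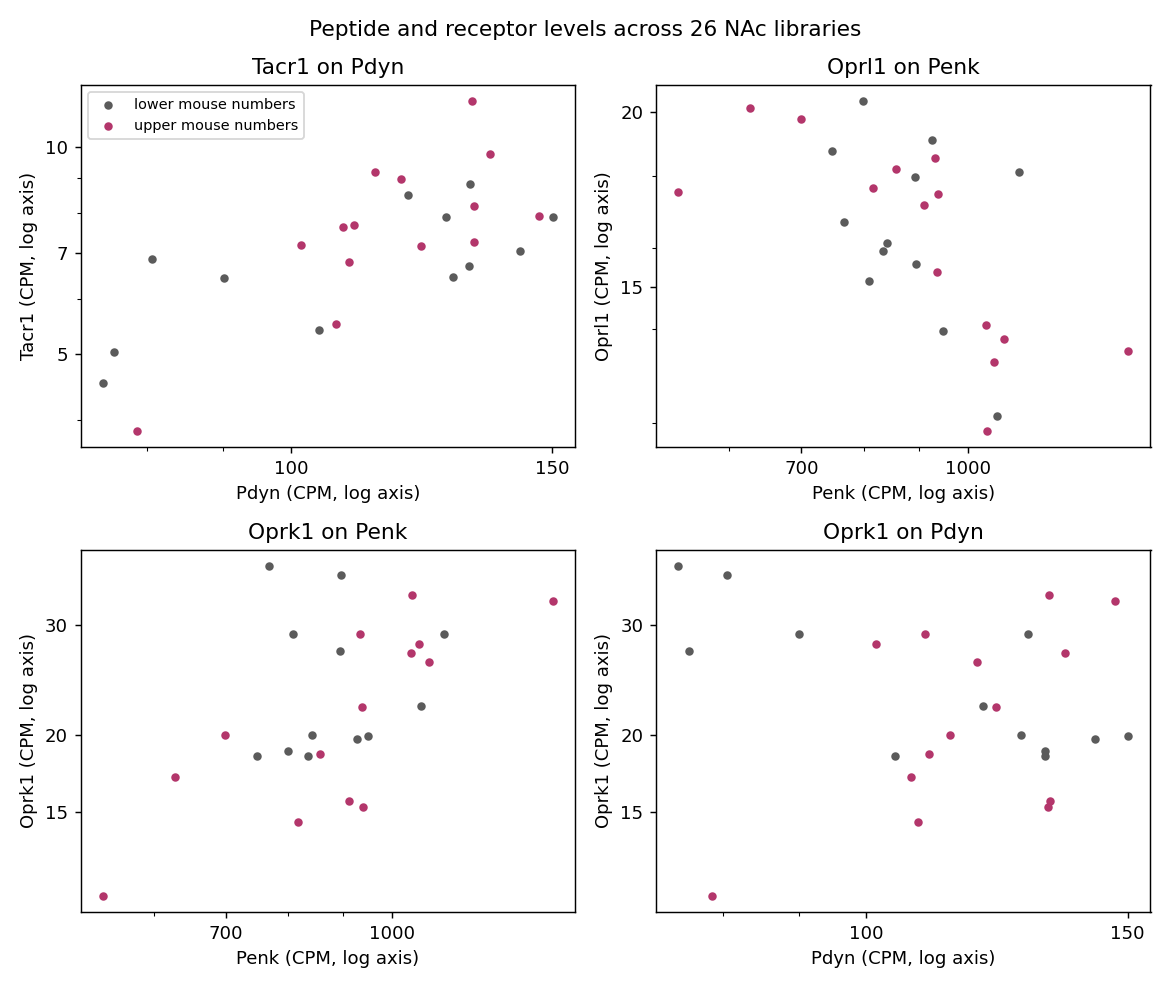
Receptor against peptide, in CPM on log axes, over 26 NAc libraries, colored by the range of mouse numbers. Tacr1 rises with Pdyn (slope 0.83) and Oprl1 falls with Penk (slope -0.48). Oprk1 rises with Penk in the upper range, and its slope on Pdyn is -0.82 for the lower mouse numbers and 1.17 for the upper ones.

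In the PFC (n = 17), 0 of the 15 pairs were called by edgeR, and 0 had a permutation p under 0.05. Of all genes, 0.0173% had a called slope on Penk there and 10.6% on Pdyn. For Tacr1 on Pdyn the PFC slope was 0.87 (SE 0.72), on the 2 to 40 counts of Tacr1, and the difference from the NAc slope was -0.04 (edgeR adjusted p = 0.9996). For Oprl1 on Penk the PFC slope was 0.04 (SE 0.06), and the difference between the regions was -0.52 (edgeR adjusted p = 0.017), a difference that was called for 6.15% of all genes.

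Levels in the NAc also moved with marker genes, a comparison made after the values were seen. Oprk1 followed Drd1, the D1 dopamine receptor, with a slope of 0.91 (SE 0.07, edgeR adjusted p = 2.8e-11), an r of 0.93 and a rho of 0.93, both with the smallest permutation p that 100000 resamples give, 1e-05. Its r was 0.91 for the lower mouse numbers, 0.97 for the upper ones and 0.95 with the 2 farthest libraries left out. The libraries highest in Drd1, J965, J1019 and J1018, at 209, 206 and 197 CPM, also held the most mitochondrial ribosomal RNA. It took 69.3%, 68.7% and 65.3% of their counts. The lowest in Drd1, J1199 at 60.6 CPM, held 44.7%, and J1140, with the least at 39.0%, held 83.6 CPM. The part of RNA composition in the relations with marker genes was not tested. Oprk1 also followed Adora2a, the adenosine receptor of D2 projection neurons, with a slope of 0.90 (SE 0.12), and ran against Slc17a7, with a slope of -0.19 (SE 0.03, edgeR adjusted p = 9.8e-05). Penk followed Adora2a with a slope of 0.53 (SE 0.10, edgeR adjusted p = 1.7e-04), with an r of 0.30 for the lower mouse numbers and 0.90 for the upper ones, and ran against Slc17a7 with a slope of -0.10 (SE 0.03, edgeR adjusted p = 0.0035). Penk also followed Drd1, with a slope of 0.29 (SE 0.11, edgeR adjusted p = 0.026). Oprl1 fell with Adora2a by a slope of -0.35 (SE 0.09, edgeR adjusted p = 0.0037). Of all genes, 59.1% had a called slope on Drd1, 32.8% on Adora2a and 40.4% on Slc17a7. None of the slopes of Pdyn, Tac1, Oprm1, Oprd1 or Tacr1 on these 3 markers was called in edgeR over all 26 libraries. For Pdyn the sign of r differed between the lower and the upper mouse numbers. It was -0.88 and 0.50 with Drd1, -0.58 and 0.67 with Adora2a, and 0.53 and -0.66 with Slc17a7. The part of the dissection or of cell makeup in the relations of Penk, Oprk1 and Oprl1 was not tested beyond the term for Slc17a7.

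**Figure D5:**
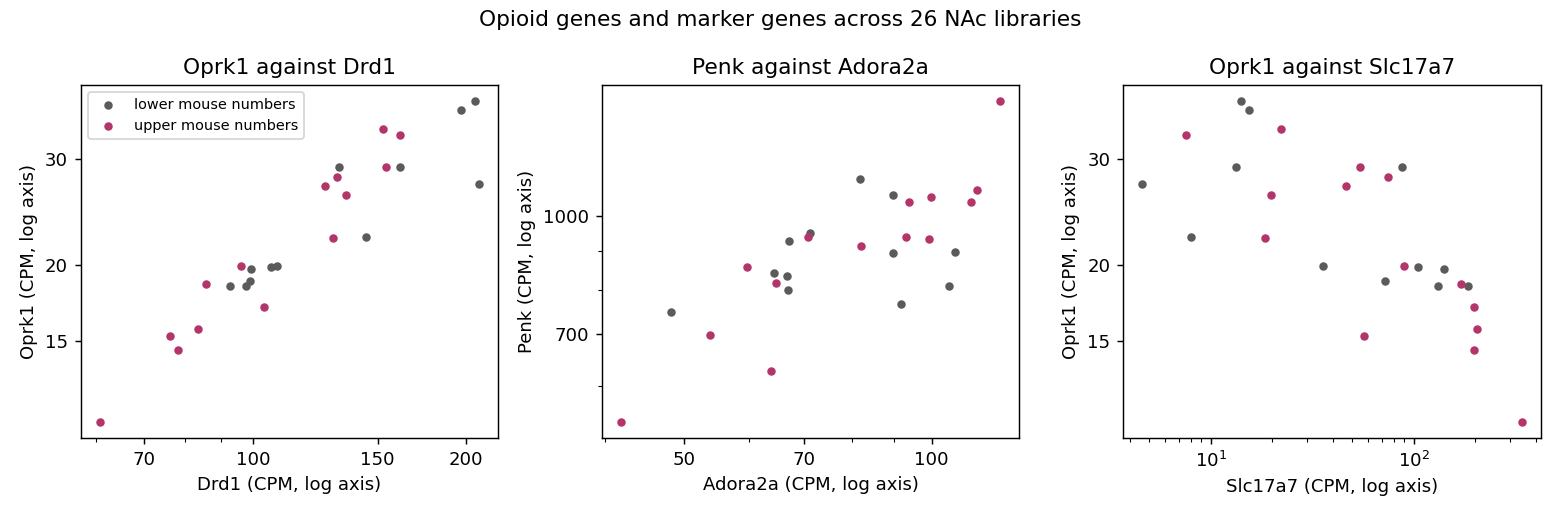
Oprk1 against Drd1, Penk against Adora2a and Oprk1 against Slc17a7, in CPM on log axes, over 26 NAc libraries, colored by the range of mouse numbers. Oprk1 rises with Drd1 over the whole range, from 11.02 CPM in J1199 to 37.3 CPM in J1019, and is lowest where Slc17a7 is highest.

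The genes most like each member over the 26 NAc libraries were ranked by Pearson's r of log2 CPM among 11558 genes, as a description. Penk was most like Rem2 (r = 0.89), Ppp1r1b (0.89) and Syndig1l (0.88). Oprk1 was most like Cdh7 (0.94) and Drd1 (0.93), and Tacr1 like the GABA transporter gene Slc32a1 (0.87), Abcg1 (0.84) and Abat (0.83). Pdyn was most like Wfs1 (0.81), Jph4 (0.81) and Usp27x (0.79). Oprl1 was most like Ctps2 (0.81), Nt5c3b (0.80) and Slc8a1 (0.80), and Oprm1 like Robo1 (0.81), Runx1t1 (0.76) and Dchs2 (0.70). Tac1 and Oprd1 had weaker neighbors, with Orc5 (0.74), Bpgm (0.73) and Dnajb9 (0.71) for Tac1, and Zfp319 (0.75), Vstm2l (0.70) and Samd10 (0.69) for Oprd1. The libraries share depth and dissection, so a high r is not particular to a pair.

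The promoters of Pdyn and Tacr1, the pair whose call held on leaving out any 1 library, are shown, from 250 bases before to 50 bases after the start site, as given by RefSeq on GRCm38.p6. Of the 10 genes, 7 matched this table, with 12 promoters. Both strands were searched for the cAMP response element core TGACG, its full form TGACGTCA, the AP-1 site TGANTCA, the E-box CACGTG, which the clock proteins are known to bind, and the TATA box TATAAA. The core lies within the full form. Of 32851 mouse promoters of this length, 20.8%, 1.79%, 7.81%, 7.15% and 13.6% hold them. Capitals mark the single match in the pair, the core read on the opposite strand in Tacr1. Pdyn held 0 of the 5 in either of its promoters. Among the others, the Tac1 promoter held 2 copies of the core, both read on the opposite strand, and 1 E-box. The Oprd1 promoter held 1 E-box. Of the 3 Oprl1 promoters, 1 held TATAAA, read on the opposite strand at position -140 from the start site.
Pdyn, chr2:129699889-129700188, minus strand: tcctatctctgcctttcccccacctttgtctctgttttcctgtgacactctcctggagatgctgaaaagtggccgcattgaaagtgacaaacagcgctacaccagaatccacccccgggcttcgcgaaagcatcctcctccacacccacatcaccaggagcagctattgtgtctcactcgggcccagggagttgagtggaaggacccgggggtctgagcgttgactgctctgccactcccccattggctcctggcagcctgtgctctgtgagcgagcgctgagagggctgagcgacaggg
Tacr1, chr6:82402225-82402524, plus strand: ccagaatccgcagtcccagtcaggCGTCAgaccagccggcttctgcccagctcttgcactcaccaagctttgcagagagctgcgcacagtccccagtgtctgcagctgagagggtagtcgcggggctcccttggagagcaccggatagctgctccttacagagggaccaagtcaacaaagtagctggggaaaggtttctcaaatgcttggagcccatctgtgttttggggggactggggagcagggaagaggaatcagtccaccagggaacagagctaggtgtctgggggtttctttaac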

How the data were processed

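RNA sequencing libraries of NAc, PFC and SCN punches were analysed. Raw counts per gene were deposited by the authors in 2 tables, made by HISAT2 alignment to GRCm38 and HTSeq counting (union mode). Both tables had been filtered by expression level. The tables hold 11569 and 12047 rows, of which 0 name no gene. Gene symbols, positions and exon lengths came from GENCODE M21. CPM was scaled by TMM within each table, so the SCN was scaled apart. The 10 genes, the pathway lists and the markers were chosen with earlier results of these data known. The genes named are the 10, the 3 genes with the highest Pearson r for each in the NAc, and listed pathway genes. For Oprk1, 1 of the 3 is not reported here.

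The NAc was compared with the PFC by edgeR's quasi-likelihood test (edgeR 4.0.16, R 4.3.3) with filterByExpr and Benjamini-Hochberg adjustment over all genes. Calls needed an adjusted p under 0.05 and, between regions, a 1.2-fold change. Slopes used log2 CPM with a prior count of 2, and correlations used two-sided permutation tests with 100000 resamples. DESeq2 1.42.0 and limma 3.58.1 were alternatives. The relations with marker genes, the differences between slopes, leaving out each NAc library, and leaving out the 2 NAc libraries highest in Slc17a7 were added after seeing the data. The tests were checked on simulated data with genes drawn independently, which does not cover variation in composition that genes share across libraries. The same number marks the same animal, so NAc and PFC libraries are paired in 17 mice. The correlation of a mouse's NAc and PFC deviations from the region means had a median of 0.006 and was over 0.1 in 7 mice. Separate mice are the replicates within a region. Effects of CRD and sex were not tested, because the labels do not give them per library. Depth per library is given with the samples; it leaves the lowest PFC levels with few counts. Python 3.11.15, numpy 2.4.6, pandas 2.3.3 and scipy 1.17.1 were also used.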

Additional observations from a re-analysis of the deposited data

Results flagged for a closer look

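The slope of Oprk1 on Pdyn across NAc libraries was higher among mice numbered from J1140 than among mice numbered up to J1021 by 1.99 on the log2 scale (edgeR, interaction term, adjusted p = 0.023). The same test was called for 1674 of 11568 genes, or 14.5%. In the lower range, the libraries lowest in Pdyn were J1019, J965, J1018 and J1017, at 74.7 to 90.1 CPM. They held 27.2 to 37.3 CPM of Oprk1, and mitochondrial ribosomal RNA took 59.9% to 69.3% of their counts. J1014, at 60.4%, held 129 CPM of Pdyn. The part of RNA composition in this difference was not tested. The slope of Oprl1 on Penk was lower in the NAc than in the PFC by 0.52, a difference of -0.52 (edgeR, interaction term, adjusted p = 0.017), and 712 of 11568 genes, or 6.15%, were called in that test. Both differences were tested after the slopes had been seen. The cause of neither was tested, and the labels do not say what the ranges of mouse numbers stand for.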

How the results depend on the processing

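The calls of the 8 genes between the NAc and the PFC, 6 higher and 0 lower, were the same under every alternative run except the strictest filter, a mean of at least 5 CPM, which removed Tacr1 and left 5 higher, and all 79 alternative values of their log2 fold changes kept direction and call. With the mouse number as a replicate block over the 17 paired mice, 5681 genes passed, against 5743 in the same mice without the block and 5254 in all libraries. The block changed no call among the 8 genes. The strictest filter left 4066 calls among fewer genes tested. The interaction with the range of mouse numbers was called for 0 of the 8 genes and, by edgeR, for 0 of all genes, with 2279 at an unadjusted p under 0.05 and 23 called by DESeq2. Restricted to the 17 paired mice, it was called for 315 genes without the replicate block and 1 with it.

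The peptide-receptor pairs called in the NAc fell from 3 to 1 without the 2 libraries farthest from the median of the peptide. With Slc17a7 as a term, Oprk1 and Oprl1 on Penk were not called, while Tacr1 on Penk was. Its slope was then 0.90 (edgeR adjusted p = 0.049), against 0.61 (edgeR adjusted p = 0.096) without the term. Leaving out 1 NAc library at a time gave 1 to 4 pairs, with 1 without J1177 and 1 without J1160. The peptide-peptide pairs rose from 0 to 1 among the upper mouse numbers and to 1 with Slc17a7 as a term, in both cases Pdyn on Penk, to 1 with the peptides exchanged in the slope, and ranged from 0 to 1 on leaving out a library, with 1 without J1018 or J965. The slope of Oprm1 on Penk was -0.074 without the 2 farthest libraries, -0.27 with Slc17a7 as a term and -0.30 to 0.28 on leaving out a library. In the upper range, the slope of Oprk1 on Pdyn was 1.17 and that of Tacr1 on Tac1 was 0.42. Where fewer libraries entered, the fit had less data. The cause of the other changes was not tested. Of 81 slopes under other alternatives, 66 kept their direction and call, and of 234 on leaving out a library, 213 did. Of 56 median levels under other scalings or without SCN J1199 and J1140, 33 moved by less than the spread between libraries and 23 by more, all 23 of them when counts were scaled to nuclear protein-coding genes, which took the median of Penk in the NAc from 904 to 2314 and that of Oprl1 in the SCN from 55.0 to 135.

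Depth limits the PFC levels of Tacr1 and Oprm1 most, and without CRD or sex labels the spread over libraries holds any effect of both.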
